A study of Mus musculus with 12 samples.

Results

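The genes described here are 45 cell cycle and DNA replication genes of bone marrow-derived macrophages (BMDMs), of 48526 genes in the count table. They comprise 24 mitotic genes, which act in chromosome segregation and cell division, and 21 replication genes, which act at the G1/S transition and in DNA synthesis. All 45 symbols were matched to a GENCODE gene of GRCm38, and all 45 passed the filter on low counts that left 15523 genes for testing. The symbols were selected on a list of names drawn up with earlier expression values and fold changes of these 12 libraries known, and which of those values guided the choice is not recorded. Counts and medians over the 45 genes are therefore descriptions, and an adjusted p of a single gene is given only to set its difference against the spread between libraries.

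Total RNA was sequenced from BMDMs of wild-type (WT) mice and of mice homozygous for a deletion of HSS9 (KO), an enhancer upstream of Tnf. Marrow cells of male mice had grown for 6 days with 20% L929-conditioned medium, a source of the macrophage growth factor CSF1. Cells were given PBS (UT, the unstimulated control) or lipopolysaccharide (LPS), a bacterial membrane component, for 6 hr. There were 12 libraries, 3 for each genotype and treatment, written WT UT, WT LPS, KO UT and KO LPS. The labels call the controls littermates, whereas the methods describe KO mice kept as homozygous pairs and purchased C57BL/6 mice, without saying which mice gave these WT libraries. The deletion is a germline one, so it is not limited to macrophages. Neither source says whether libraries of a group came from separate mice, so p-values measure the spread between these libraries, which may be technical. Total counts were 26154533 to 36423921 per library, and the 45 genes held 0.0363% to 0.105% of them. Tnf, the check of the knockout, had 19902 to 22172 counts in WT LPS libraries and 11003 to 11974 in KO LPS libraries. Macrophage markers were high in every group, with a sum over the 10 genes of the list of 28281 to 34696 CPM (counts scaled to a common library size). The library kit depletes globin transcripts, so hemoglobin genes are no check here. The sums over the erythroid list and over the B and T cell list were at most 0.323 and 1.85 CPM. The WT LPS libraries differed most among themselves, with a chi-square per degree of freedom of 46.3 between replicates 1 and 3, beside 3.81 to 17.4 for the other pairs within a group.

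Cells that divide copy their DNA in S phase and segregate it in mitosis, and each step has its own wave of transcripts. In G1, E2F transcription factors turn on genes for origin licensing, the MCM helicase and nucleotide supply. Later, genes for mitotic cyclins, kinases, the kinetochore and the spindle are turned on through cell cycle elements named CHR and CCAAT. CSF1 drives division of macrophages in culture, and LPS is known to arrest them. Levels are CPM after TMM scaling of library sizes, and fold changes are log2 values of the edgeR quasi-likelihood fit with Benjamini-Hochberg adjusted p-values over all 15523 genes. To be called, a gene had to have an adjusted p below 0.05 together with a log2 fold change beyond 1 in size.

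Promoter sequences are shown first because each class is known for its own short promoter elements. RefSeq promoters (GRCm38.p6, 250 bases before to 50 after a start) were at hand for 38 of the 45 genes, 20 mitotic and 18 replication genes. Mcm7 and Uhrf1 have 2 promoters each, so there were 20 promoters in each class. The CHR letters TTTGAA, on either strand, were in 14 of 20 mitotic promoters (70.0%), in 3 of 20 replication promoters (15%) and in 17.9% of all 32851 promoters of the table. The CCAAT letters were in 17 of 20 mitotic promoters (85.0%), in 13 of 20 replication promoters (65.0%) and in 37.4% of all promoters. The E2F letters (TTTCCCGC, TTTCGCGC, TTTGCCGC or TTTGGCGC) were in 7 of 20 replication promoters (35.0%), in 1 of 20 mitotic promoters (5.0%) and in 2.26% of all promoters. The 7 replication promoters belong to Cdc6, Cdt1, Mcm3, Mcm5, Mcm6, Mcm7 and Uhrf1, and the mitotic one to Cdk1. The CHR share depended on the window, since in the 250 bases before the start alone it was 35.0% of mitotic and 16.0% of all promoters. From 100 before to 50 after the start it was 70.0% of mitotic and 8.01% of all promoters. The E2F share of replication promoters was 25.0% in the 250 bases before the start and 20.0% from 100 before to 50 after the start. The median log2 fold change with LPS in WT was -1.99 for 14 mitotic genes with CHR and -1.48 for 6 without, and it was -1.31 for 7 replication genes with E2F letters and -1.19 for 11 without. With LPS in KO it was -1.71 and -1.20 for the mitotic genes with and without CHR. For the replication genes with and without E2F letters it was -1.43 and -0.85. For KO against WT the mitotic order was the other way, at -0.68 with CHR and -0.77 without in UT libraries, and at -0.43 and -0.51 in LPS libraries. A match is a description of letters and not a binding site.

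The following stretches lie before the RefSeq transcription start and are written 5′ to 3′ along the gene, with all matches of the 3 motifs on either strand in capitals. Each is, of the genes of its class with a given motif before the start, the one with the highest mean CPM. Mki67 has CHR at 116 and 98 bases before its start (chr7:135716380-135716629, minus strand). Cdk1 has the single E2F match of the mitotic class at 131 bases (chr10:69352939-69353162, minus strand), and its stretch stops at the outermost GENCODE start. Mcm2 is a replication gene with CHR, at 70 bases (chr6:88898781-88899030, minus strand). Mcm6 has overlapping E2F matches at 110 and 106 bases and a further match at 47 bases (chr1:128359706-128359955, minus strand).
Mki67: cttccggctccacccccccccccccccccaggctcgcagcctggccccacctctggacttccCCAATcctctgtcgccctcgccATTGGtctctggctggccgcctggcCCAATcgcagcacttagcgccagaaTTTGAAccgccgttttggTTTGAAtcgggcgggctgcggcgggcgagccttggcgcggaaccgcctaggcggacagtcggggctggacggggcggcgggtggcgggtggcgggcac
Cdk1: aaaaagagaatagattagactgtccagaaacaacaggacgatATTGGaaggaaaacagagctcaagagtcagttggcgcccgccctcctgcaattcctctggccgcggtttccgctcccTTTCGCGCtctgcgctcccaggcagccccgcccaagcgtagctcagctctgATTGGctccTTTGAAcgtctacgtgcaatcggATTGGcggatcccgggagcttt
Mcm2: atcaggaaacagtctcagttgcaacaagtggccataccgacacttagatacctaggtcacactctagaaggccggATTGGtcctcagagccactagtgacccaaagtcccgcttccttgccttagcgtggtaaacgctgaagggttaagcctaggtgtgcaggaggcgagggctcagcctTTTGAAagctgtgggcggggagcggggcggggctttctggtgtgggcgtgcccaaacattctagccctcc
Mcm6: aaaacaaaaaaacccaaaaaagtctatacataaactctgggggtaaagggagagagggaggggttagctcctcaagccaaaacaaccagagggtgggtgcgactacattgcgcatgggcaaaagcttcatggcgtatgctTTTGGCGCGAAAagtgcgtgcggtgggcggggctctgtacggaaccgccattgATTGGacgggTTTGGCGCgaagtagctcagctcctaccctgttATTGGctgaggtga

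In untreated WT cells both classes were expressed, with a range of levels per length. Per kb of exon, Pcna, the sliding clamp of DNA polymerases, was highest at 84.6 ± 2.88 CPM (SD, n = 3), followed by Mcm6 at 15.7 ± 0.550 and Cdt1 at 9.75 ± 0.170. Chek1, a checkpoint kinase, was lowest at 0.393 ± 0.0332 CPM per kb, and the median of the 45 genes was 1.79. After LPS, Pcna and Mcm6 kept the highest levels per kb in both genotypes, and Mki67, the proliferation antigen of the chromosome periphery, came next at 6.82 ± 0.424 CPM per kb in WT and 5.11 ± 0.312 in KO. Cenpf was then the lowest, at 0.0858 ± 0.05002 CPM per kb in WT and 0.0485 ± 0.00667 in KO. After LPS the mean was under 1 CPM for 7 of the 45 genes in WT and for 11 in KO, and the lowest count of a member in a library was 3.

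**Figure D1:**
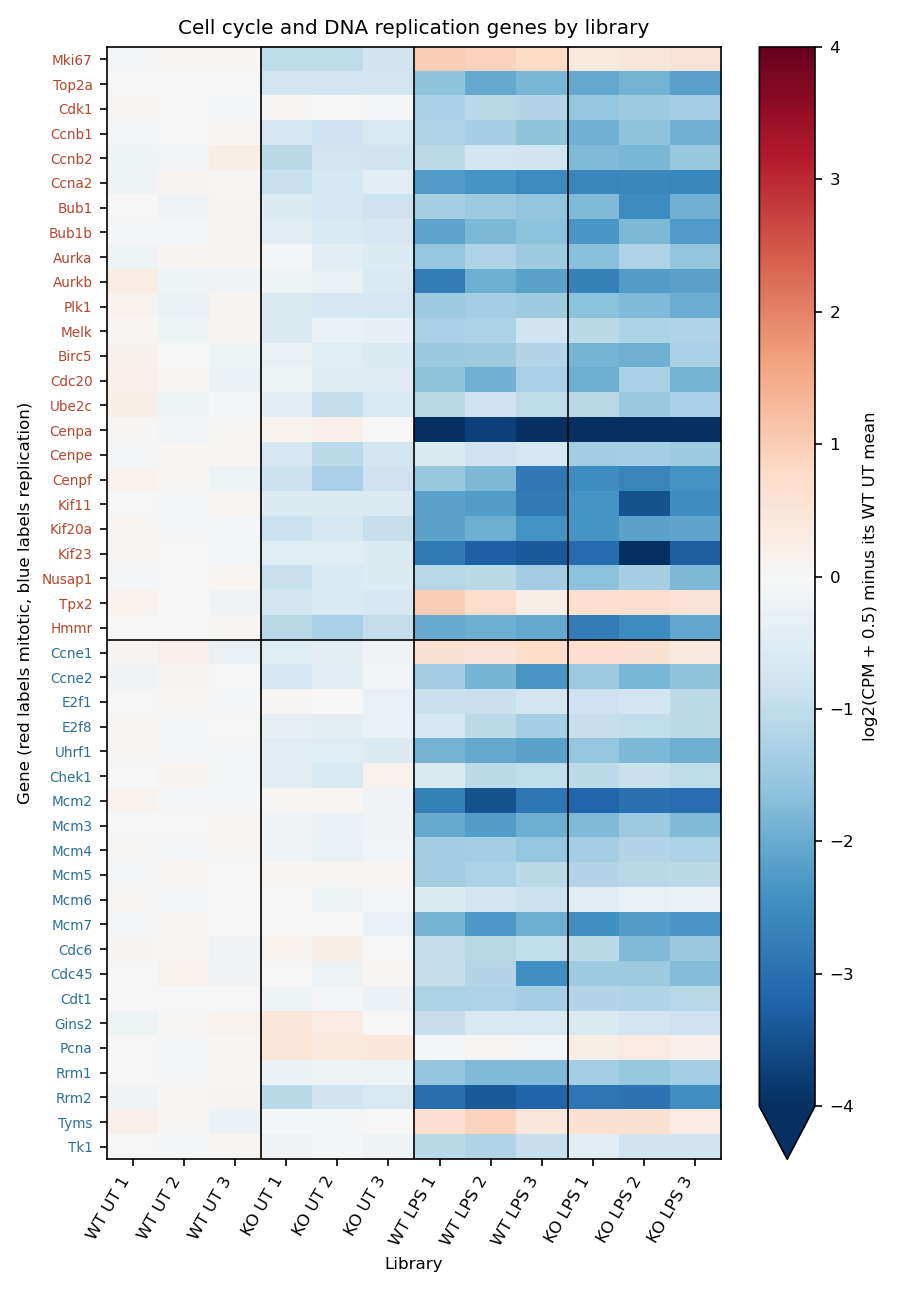
Heat map of the 45 genes (rows, mitotic above and replication below) in the 12 libraries (columns), as log2(CPM + 0.5) minus the WT UT mean of the gene, with colours that end at -4 and 4. Most rows turn blue in the 6 LPS libraries, Mki67, Tpx2, Ccne1 and Tyms turn red there, and most mitotic rows are pale blue in the 3 KO UT libraries.

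To determine how LPS affected the cell cycle program, LPS and UT libraries were compared within each genotype. LPS lowered most of the 45 genes, and did so in both classes and both genotypes. In WT, 35 of 45 genes were called lower, where 18.7% of all genes tested were, and 0 were called higher, where 19.1% were. In KO, 35 of 45 were called lower, where 19.3% of all genes were, and 3 were called higher, where 17.7% were. Without a fold minimum, 40 genes were lower in WT and 41 in KO, beside 35.3% and 37.7% of all genes, and 4 were higher in each, beside 38.0% and 35.1%. The median log2 fold change was -1.79 in WT and -1.62 in KO for the mitotic genes and -1.30 and -1.12 for the replication genes, while over all genes it was 0.05 and -0.06. Upper-quartile scaling moved the median of all genes by more than 0.1, to -0.14 and -0.24, and the medians of the 2 classes moved down with it. In bulk RNA, fewer dividing cells and less RNA per dividing cell cannot be told apart. Progenitor markers moved with this change, with a sum over the 8 genes of 14.3 to 16.1 CPM in WT UT, 11.5 to 12.8 in KO UT, 3.82 to 4.22 in WT LPS and 3.70 to 5.11 in KO LPS and 0 of the 8 at 0 in any group. Clustered histone genes moved with it too, with 29 of 58 tested called lower in WT and 55 in KO, and of 7 tested neutrophil lineage markers 2 were called higher in each genotype and 3 were called lower in WT and 5 in KO. The sum over 10 stromal markers was 8.89 to 9.08 CPM in WT UT, 10.4 to 11.3 in KO UT, 23.99 to 27.7 in WT LPS and 31.9 to 35.8 in KO LPS libraries, with 1 of 8 tested called higher and 1 lower in WT, and 3 higher in KO. Pdgfrb led that sum after LPS, with means of 0.966 CPM in WT UT, 1.26 in KO UT, 19.8 in WT LPS and 19.7 in KO LPS libraries. In WT, 5 of the 8 tested stromal markers had a negative value (median -0.40), and in KO 2 did (median 0.73). Their part in the result was not tested. With the share of small structured RNAs in a library as a covariate, the call changed for 8 of the 45 genes in WT and 13 in KO, and 0 genes changed sign. Among the KO calls that changed were those of Aurka, Aurkb, Plk1, Birc5, Cdc20, Ube2c and Melk. Without a fold minimum, 30 of the 45 genes that had passed in KO and 42 of 44 in WT still passed in that fit. The 15 genes that no longer passed in KO included, beside those 7, Tpx2, Gins2, Pcna, Tyms, Tk1 and E2f1. In each genotype that share lay apart between UT and LPS libraries, so the covariate and LPS cannot be told apart there.

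Among centromere and kinetochore genes, Cenpa had the largest fall of the 45 genes. Cenpa (ENSMUSG00000029177.9, chromosome 5, 30666777 to 30674830) encodes the histone H3 variant that marks centromeres. It was at 58.0, 52.9 and 58.8 CPM in WT UT libraries and at 62.5, 65.7 and 57.4 CPM in KO UT libraries. After LPS it was at 2.35, 3.77 and 2.55 CPM in WT and at 2.11, 1.802 and 2.09 CPM in KO. The LPS and UT libraries were far apart in both genotypes (-4.30 on the log2 scale with an SE of 0.114, adjusted p in edgeR 7.11e-19 in WT, and -4.95, SE 0.118, adjusted p in edgeR 1.09e-19 in KO). Cenpe, a kinetochore motor, fell by 0.75 and 0.65 on the log2 scale in WT and KO, and Cenpf, a kinetochore protein of G2 and mitosis, fell by 2.28 and 2.04.

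Spindle and motor genes fell in 5 of 6 cases in each genotype. Kif23 (ENSMUSG00000032254.9, chromosome 9, 61915905 to 61946774), a kinesin of the central spindle and cytokinesis, was at 23.5, 23.3 and 22.2 CPM in WT UT libraries and 16.4, 16.4 and 15.7 in KO UT libraries. After LPS it was at 2.83, 1.93 and 1.79 CPM in WT and 2.26, 0.976 and 1.87 in KO. The groups did not overlap (-3.37 on the log2 scale with an SE of 0.160, adjusted p in edgeR 2.58e-14 in WT, and -3.25, SE 0.167, adjusted p in edgeR 1.13e-13 in KO). Tpx2, which activates Aurora A on the spindle, was the gene of this group that rose, in WT libraries from 9.03, 8.08 and 7.32 to 16.4, 13.4 and 9.85 CPM and in KO libraries from 4.71, 5.20 and 4.88 to 12.9, 13.7 and 12.2 CPM (0.71 on the log2 scale, SE 0.134 in WT and 1.39, SE 0.143 in KO, adjusted p in edgeR 7.26e-05 and 1.48e-08). With the small RNA share as a covariate Tpx2 was called in WT and no longer passed in KO. A microRNA gene, Mir5622, lies within Tpx2 on the same strand.

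The mitotic cyclin and kinase genes, 10 in number, fell in both genotypes, with log2 fold changes between -2.94 and -0.98 in WT and between -2.66 and -1.03 in KO. Cdk1 (ENSMUSG00000019942.12, chromosome 10, 69335146 to 69352938), the kinase that drives entry into mitosis, was at 21.4, 20.8 and 19.5 CPM in WT UT and 21.1, 20.4 and 19.6 in KO UT libraries. It was at 8.12, 9.29 and 8.91 CPM in WT LPS and 6.71, 7.43 and 7.65 in KO LPS libraries. All LPS libraries lay below all UT libraries (-1.23 on the log2 scale with an SE of 0.0868, adjusted p in edgeR 2.75e-11 in WT, and -1.49, SE 0.0882, adjusted p in edgeR 1.38e-12 in KO). Aurkb, the kinase of the chromosomal passenger complex, had the lowest value of the group in both genotypes. Birc5 (ENSMUSG00000017716.15, chromosome 11, 117849251 to 117855743), which encodes survivin, another subunit of that complex, was at 4.63, 4.15 and 3.55 CPM in WT UT and 3.21, 2.76 and 2.58 in KO UT libraries. After LPS it was at 1.16, 1.21 and 1.56 CPM in WT and 0.767, 0.713 and 1.35 in KO. Birc5 fell in both genotypes (-1.66 on the log2 scale with an SE of 0.224, adjusted p in edgeR 8.91e-07 in WT, and -1.58, SE 0.238, adjusted p in edgeR 4.13e-06 in KO). With the small RNA share as a covariate its value in KO was -0.91 with adjusted p in edgeR 0.218.

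The 2 mitotic chromatin genes went opposite ways. Mki67 (ENSMUSG00000031004.8, chromosome 7, 135689784 to 135716361) was at 34.7, 37.7 and 37.7 CPM in WT UT and 17.8, 17.9 and 20.7 in KO UT libraries. After LPS it was at 72.6, 69.3 and 64.1 CPM in WT and 48.5, 50.9 and 54.7 in KO, above every UT library. It thus rose while most of its class fell (0.90 on the log2 scale with an SE of 0.0701, adjusted p in edgeR 1.42e-10 in WT, and 1.45, SE 0.0743, adjusted p in edgeR 1.07e-13 in KO). Top2a, the topoisomerase that untangles sister chromatids, fell by 1.87 in WT and 1.33 in KO on the log2 scale.

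The MCM genes, whose products form a ring of 6 subunits that unwinds DNA at the fork, all fell but by very different amounts. Mcm2 was at 13.5, 11.6 and 11.7 CPM in WT UT and 1.45, 0.629 and 1.23 in WT LPS libraries, and at 12.7, 13.0 and 11.1 CPM in KO UT and 0.920, 1.09 and 1.02 in KO LPS libraries (-3.45 on the log2 scale, SE 0.177 in WT and -3.59, SE 0.177 in KO, adjusted p in edgeR 1.13e-13 and 5.15e-14). Mcm6 (ENSMUSG00000026355.11, chromosome 1, 128331590 to 128359664) had the smallest fall of the 6. It was at 76.2, 71.3 and 72.6 CPM in WT UT and 50.1, 43.8 and 40.02 in WT LPS libraries, and at 73.6, 65.5 and 70.6 CPM in KO UT and 54.0, 59.2 and 62.7 in KO LPS libraries (-0.71 on the log2 scale, SE 0.0745 in WT and -0.25, SE 0.0733 in KO, adjusted p in edgeR 1.87e-08 and 0.00404). The other 4 lay between, with log2 fold changes in WT of -2.17 for Mcm3, -1.48 for Mcm4, -1.30 for Mcm5 and -2.16 for Mcm7. Mcm7 also hosts Mir25, Mir93 and Mir106b.

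**Figure D2:**
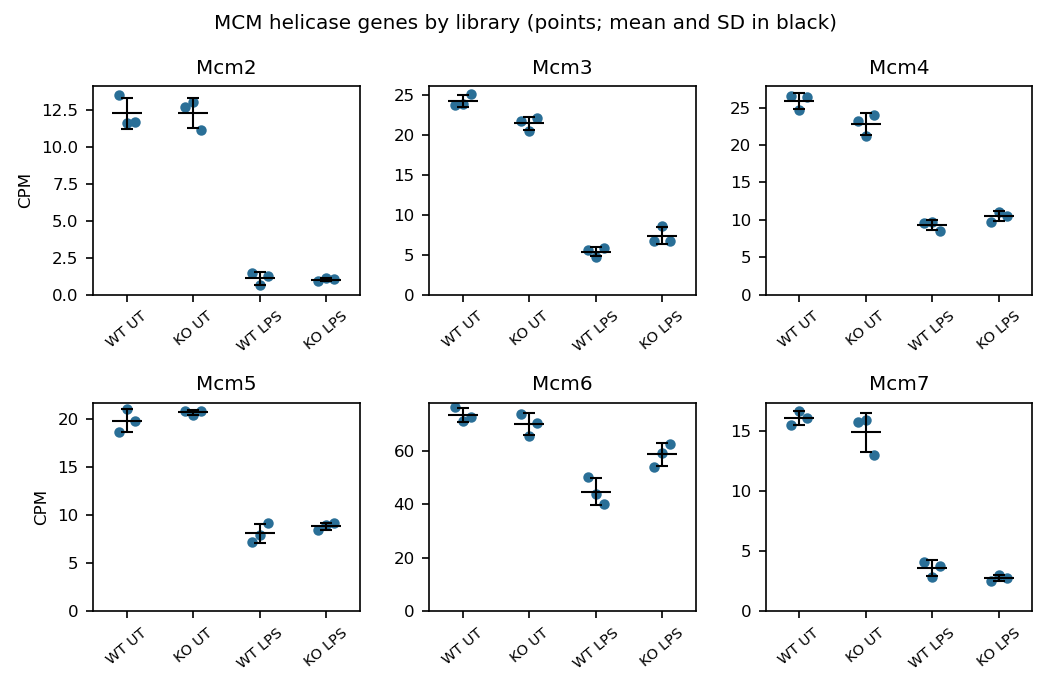
CPM (y axis, from 0) of the 6 MCM helicase genes in the 4 groups, with a point for each library and the mean and SD in black (n = 3). Mcm2 drops from 12.2 to 1.10 CPM in WT with LPS, whereas Mcm6 drops from 73.4 to 44.6 CPM.

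Origin licensing and firing genes fell in both genotypes. Cdt1 (ENSMUSG00000006585.2, chromosome 8, 122568015 to 122573554), which loads the MCM ring onto origins, was at 31.2, 30.4 and 30.2 CPM in WT UT and 27.2, 29.7 and 25.9 in KO UT libraries. It was at 12.4, 12.8 and 11.8 CPM in WT LPS and 13.5, 13.0 and 13.5 in KO LPS libraries. The groups did not overlap (-1.31 on the log2 scale with an SE of 0.0747, adjusted p in edgeR 6.72e-13 in WT, and -1.05, SE 0.0738, adjusted p in edgeR 2.54e-11 in KO), although in KO the value was -1.0 without KO UT replicate 2 and was then not called. An unnamed gene model, Gm20388, overlaps Cdt1 on the same strand and Gins2 on the other. The log2 fold changes of Cdc6, a licensing ATPase, were -1.30 in WT and -2.05 in KO, those of Cdc45, a helicase subunit, were -1.78 and -2.04, and those of Gins2, of the GINS complex, were -0.80 and -1.08.

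Nucleotide supply and clamp genes split. Pcna (ENSMUSG00000027342.14, chromosome 2, 132249162 to 132253314) was at 204, 196 and 209 CPM in WT UT and 198, 211 and 194 in WT LPS libraries, which overlapped (-0.02 on the log2 scale with an SE of 0.0550, adjusted p in edgeR 0.812). Under upper-quartile scaling, which moved the median of all genes to -0.14, Pcna in WT was at -0.198 (adjusted p in edgeR 0.00258). In KO it was at 283, 268 and 270 CPM without LPS and 236, 254 and 235 with LPS (-0.18 on the log2 scale with an SE of 0.0548, adjusted p in edgeR 0.00658). Rrm2, the regulated subunit of ribonucleotide reductase, had the largest fall of the replication genes in WT (-3.86, SE 0.204, against -2.31, SE 0.191, in KO), and Rrm1, its large subunit, fell by 1.76 and 1.24. Tk1, the thymidine kinase of the salvage pathway, fell by 1.19 and 0.58, and it overlaps Afmid on the other strand. Tyms, the enzyme that makes thymidylate, rose, in WT libraries from 6.69, 5.87 and 4.72 to 9.47, 11.1 and 8.06 CPM and in KO libraries from 5.41, 5.38 and 5.79 to 8.97, 8.90 and 7.32 CPM (0.73 on the log2 scale with an SE of 0.139, adjusted p in edgeR 7.49e-05, and 0.60, SE 0.142, adjusted p in edgeR 0.000726).

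Among regulators of the G1/S transition, E2f1 (ENSMUSG00000027490.17, chromosome 2, 154559407 to 154569892), an activating E2F factor, was at 14.9, 15.1 and 13.9 CPM in WT UT and 15.1, 14.5 and 11.8 in KO UT libraries. It was at 7.64, 7.68 and 8.58 CPM in WT LPS and 7.93, 8.30 and 6.73 in KO LPS libraries. E2f1 fell in both (-0.88 on the log2 scale with an SE of 0.109, adjusted p in edgeR 2.73e-07, and -0.85, SE 0.109, adjusted p in edgeR 4.66e-07). It was past the fold threshold under upper-quartile scaling in both (-1.06 in WT and -1.03 in KO), and with the small RNA covariate it was called in WT (-1.15) and did not pass in KO. The cyclin E genes, whose products activate CDK2 at the G1/S transition, went apart. Ccne1 rose, in WT libraries from 2.90, 3.18 and 2.08 to 4.32, 4.22 and 4.81 CPM and in KO libraries from 1.79, 2.00 and 2.38 to 4.56, 4.39 and 3.62 CPM (0.71 on the log2 scale with an SE of 0.180, adjusted p in edgeR 0.00134, and 1.02, SE 0.187, adjusted p in edgeR 4.90e-05), whereas Ccne2 fell by 2.21 and 1.54. The Ccne1 call in KO was lost without any of KO UT replicates 1 and 2 and KO LPS replicates 1 and 2, under upper-quartile scaling and with the small RNA covariate. Uhrf1, which couples DNA methylation to replication, fell by 2.29 and 1.43, and E2f8, a repressor E2F, by 1.13 and 0.76.

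**Figure D3:**
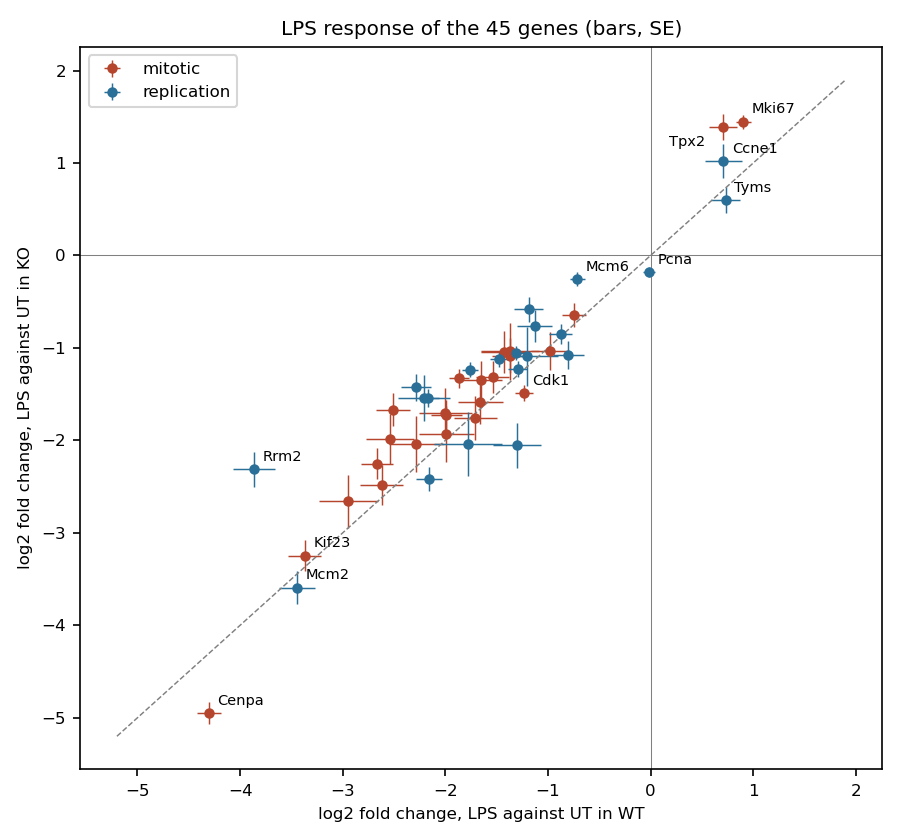
Log2 fold change of LPS against UT in WT (x axis) and in KO (y axis) for the 45 genes, mitotic in red and replication in blue, with SE bars and a dashed line of equal response. Points follow the line from Cenpa (-4.30 in WT) to Mki67 (0.90 in WT), and Rrm2 lies farthest above it.

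The order of the LPS responses was much the same in both genotypes, with Pearson's r of 0.938 and Spearman's rho of 0.905 across the 45 genes, which share libraries and are not independent. Other genes of these pathways, taken from lists that hold none of the 45, were mostly lower too. The shares of all genes to read these counts against are those above, for WT 19.1% (higher) and 18.7% (lower), and for KO 17.7% (higher) and 19.3% (lower). Of 49 other replication genes, 30 were called lower and 1 higher in WT and 29 and 1 in KO (medians -1.39 and -1.22). E2f2, another activating E2F gene, had a mean of 29.3 CPM in WT UT and 0.568 in WT LPS libraries (-5.65 on the log2 scale with an SE of 0.164, adjusted p in edgeR 3.65e-18), and Timeless, of the fork protection complex, was called higher in both genotypes (2.17, SE 0.0830, in WT and 2.89, SE 0.0890, in KO). Of 77 other mitotic genes, 61 were called lower and 2 higher in WT and 57 and 2 in KO (medians -1.87 and -1.61). Cdc25b, a phosphatase that activates CDK1, was called lower in both (-3.996 in WT and -3.88 in KO), and Pttg1, which encodes securin, was called higher in both as well (2.72, SE 0.0934, in WT and 1.85, SE 0.0909, in KO). Of 9 G1 cyclin and CDK genes, 1 was called higher and 3 lower in WT, and 2 higher and 2 lower in KO. Ccnd2, a D-type cyclin gene, had means of 2.34 CPM in WT UT and 251.9 in WT LPS libraries (6.76 on the log2 scale with an SE of 0.170, adjusted p in edgeR 3.06e-19) and was called higher in KO as well (7.43, SE 0.185). Of 23 tested cell cycle inhibitor genes, 7 were called higher and 5 lower in WT, and 7 higher and 6 lower in KO, not far from the shares of all genes. Gadd45b, a stress-induced gene, was called higher in both (3.30 in WT and 2.71 in KO), and Cdkn2c, which encodes the CDK4 and CDK6 inhibitor p18, was called lower in both (-2.51 and -2.47).

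To determine how the deletion affected these genes without stimulation, KO UT and WT UT libraries were compared. Most mitotic genes were lower in KO, by modest amounts. Of 45 genes, 2 were called lower, where 0.799% of all genes were. Without a fold minimum, 18 of 24 mitotic and 3 of 21 replication genes were lower, beside 9.69% of all genes, and 1 gene, Pcna, was higher, beside 14.1%. The replication count depended on the fit. Mcm3, Mcm4, Cdt1 and E2f8 also passed under RLE scaling and in DESeq2, and Mcm3, Mcm4, E2f8 and Ccne2 in a fit of the compared groups only. Of the mitotic genes, Aurka and Melk also passed under RLE scaling, and Aurka and Cdc20 in the fit of the compared groups only. The median log2 fold change was -0.74 for mitotic and -0.14 for replication genes, and 0.00 over all genes. The median log2 CPM of the mitotic genes was 2.82, 2.81 and 2.86 in WT UT and 2.15, 2.02 and 1.97 in KO UT libraries, which did not overlap. That of the replication genes was 3.26, 3.46 and 3.51 in WT UT and 3.25, 3.14 and 2.81 in KO UT libraries, where the lowest WT library was just above the highest KO library.

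**Figure D4:**
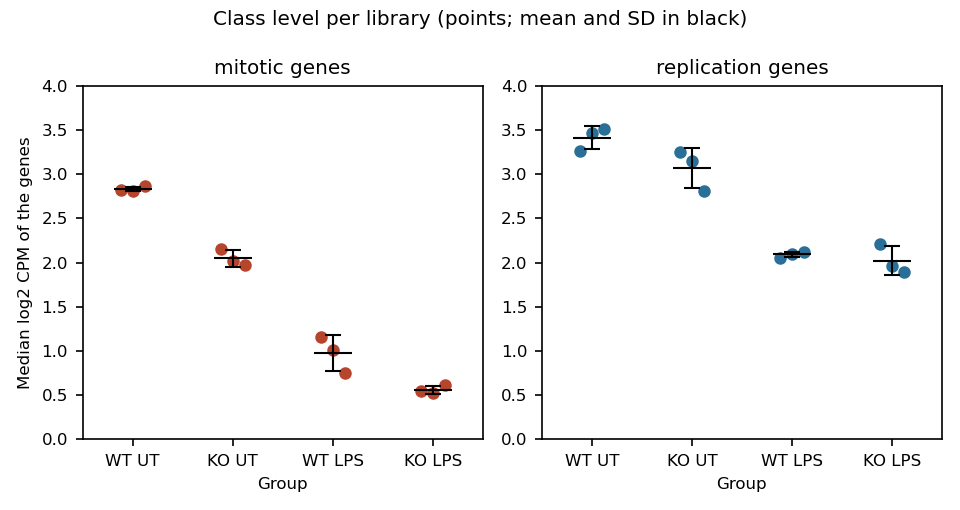
Median log2 CPM (y axis) of the 24 mitotic and 21 replication genes in each library (points), by group, with the mean and SD of 3 libraries in black. The mitotic medians step down from WT UT (2.81 to 2.86) through KO UT and WT LPS to KO LPS (0.517 to 0.609), and the replication medians of WT LPS and KO LPS overlap.

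The called genes were Hmmr and Cenpf. Hmmr (ENSMUSG00000020330.16, chromosome 11, 40701395 to 40733422), which encodes a spindle assembly protein that also binds hyaluronan, was at 4.84, 4.81 and 5.02 CPM in WT UT and 2.00, 1.67 and 2.28 in KO UT libraries (-1.30 on the log2 scale with an SE of 0.196, adjusted p in edgeR 4.16e-05). Cenpf (ENSMUSG00000026605.14, chromosome 1, 189640606 to 189688086) was at 7.37, 6.84 and 5.70 CPM in WT UT and 3.38, 2.38 and 3.49 in KO UT libraries (-1.10 on the log2 scale with an SE of 0.226, adjusted p in edgeR 0.000976), and it was at -0.95 without KO UT replicate 2, under the fold threshold. Without KO UT replicate 3 the number called lower was 5. In both genes the highest KO library was below the lowest WT library.

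Mki67 was nearly at the threshold, at 34.7, 37.7 and 37.7 CPM in WT UT and 17.8, 17.9 and 20.7 in KO UT libraries (-0.96 on the log2 scale with an SE of 0.0734, adjusted p in edgeR 7.13e-09), and it was past it under RLE scaling (-1.04) and in DESeq2 (-1.04). Top2a (ENSMUSG00000020914.17, chromosome 11, 98992943 to 99024189) was at 31.7, 31.9 and 32.3 CPM in WT UT and 18.6, 18.6 and 19.0 in KO UT libraries (-0.77 on the log2 scale with an SE of 0.0866, adjusted p in edgeR 1.57e-06). Cenpe (ENSMUSG00000045328.11, chromosome 3, 135212537 to 135273611) was at 10.3, 11.2 and 11.1 CPM in WT UT and 6.65, 5.05 and 6.30 in KO UT libraries (-0.86 on the log2 scale with an SE of 0.114, adjusted p in edgeR 1.09e-05). The KO libraries were thus below the WT libraries in each of these genes. Mitotic genes that did not pass included Cdk1 (-0.01, SE 0.0774, adjusted p in edgeR 0.921) and Cenpa (0.13, SE 0.0786, adjusted p in edgeR 0.271), both at high counts, and Aurka, Aurkb, Cdc20 and Melk, all with negative values from -0.46 to -0.40.

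Of the replication genes, Pcna was higher in KO UT, with all 3 libraries (268 to 283 CPM) above the WT UT libraries (196 to 209 CPM; 0.43 on the log2 scale with an SE of 0.0548, adjusted p in edgeR 6.36e-06). Rrm2 (ENSMUSG00000020649.11, chromosome 12, 24708241 to 24714146) was at 9.45, 10.97 and 11.4 CPM in WT UT and 4.74, 5.85 and 6.52 in KO UT libraries (-0.89 on the log2 scale with an SE of 0.142, adjusted p in edgeR 7.17e-05). Uhrf1 (ENSMUSG00000001228.14, chromosome 17, 56303321 to 56323486) was at 9.54, 8.78 and 8.72 CPM in WT UT and 6.42, 6.29 and 5.99 in KO UT libraries (-0.53 on the log2 scale with an SE of 0.121, adjusted p in edgeR 0.00231). Rrm1 was lower by less (-0.21, SE 0.0714, adjusted p in edgeR 0.0373). It did not pass in fits without WT UT replicate 1 or 3 or without KO UT replicate 1, 2 or 3. Nor did it pass with the replicate block, with the small RNA covariate or without the filter on low counts. The 6 MCM genes lay between -0.18 and 0.06 and did not pass in the main fit. Mcm3 and Mcm4 passed under RLE scaling, in DESeq2 and in the fit of the compared groups only, and Mcm4 under upper-quartile scaling. Of the other lists, 5 of 77 other mitotic genes were called lower and 30 were lower without a fold minimum (median -0.46), and 0 of 49 other replication genes were called, with 12 lower and 6 higher without a fold minimum (median -0.05).

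The composition of the libraries moved with this comparison. Small structured RNAs held 3.00% to 3.25% of counts in WT UT, 6.64% to 7.98% in KO UT, 4.04% to 6.89% in WT LPS and 3.23% to 3.43% in KO LPS libraries. With that share as a covariate, 2 mitotic genes were lower in KO UT without a fold minimum in place of 18, and both calls were lost. The fitted value of Hmmr was -0.87 with adjusted p in edgeR 0.565, that of Cenpf was 0.74 with adjusted p in edgeR 0.596, and Bub1b, a spindle checkpoint kinase, was the 1 gene called lower. Of the 45 genes, 18 changed sign. The share lay apart between the WT UT and KO UT groups, so the covariate and the genotype cannot be told apart there. Clustered histone genes, whose transcripts accumulate in S phase and mostly lack a poly(A) tail, went the other way from the mitotic genes, with a sum over 65 genes of 946.4 to 1044 CPM in WT UT and 1613 to 1939 in KO UT libraries and 42 of 58 tested genes higher without a fold minimum. Neutrophil lineage markers were also higher in KO UT, with a sum over 10 genes of 20.5 to 22.4 CPM in WT UT and 43.5 to 49.1 in KO UT libraries, led by S100a9, with 5 of 7 tested called higher (1.02% of all genes were) and 0 of 10 at 0 in both groups. Of the progenitor markers, whose sums are given above, 1 of 7 tested was called lower, and 2 of 8 tested stromal markers were called higher. Of 10 macrophage markers, 5 were higher and 1 lower without a fold minimum, beside 14.1% and 9.69% of all genes. Their sum was 29162 to 30235 CPM in WT UT and 33590 to 34696 in KO UT libraries. Their part in the result was not tested.

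**Figure D5:**
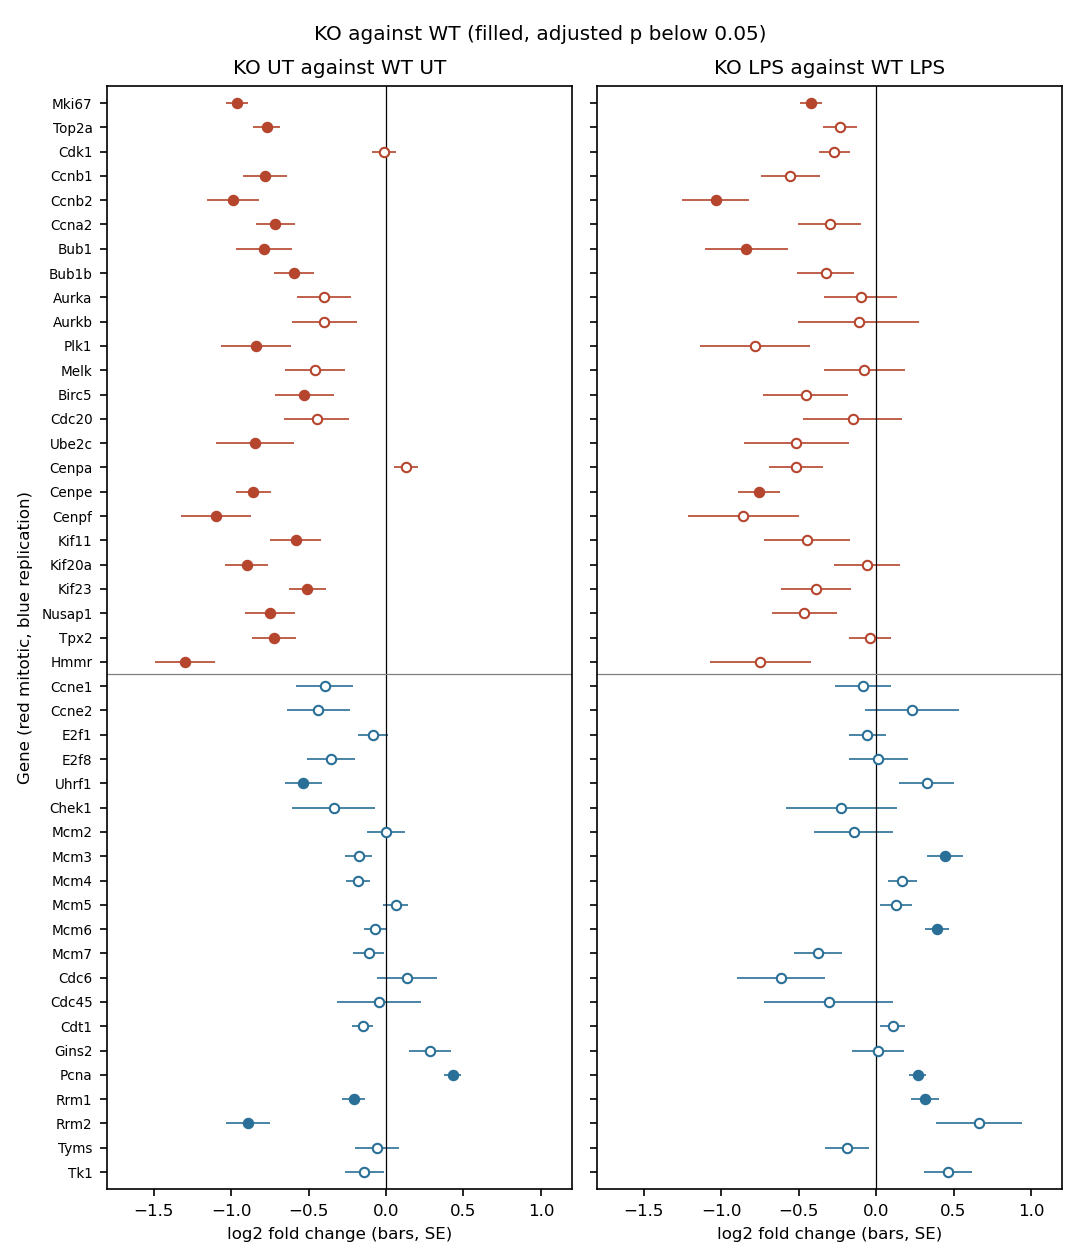
Log2 fold change of KO against WT (x axis, SE bars) without LPS (left) and with LPS (right) for each gene (rows), with mitotic genes in red, replication genes in blue and filled points for an adjusted p below 0.05. On the left 18 mitotic points and Rrm1, Rrm2 and Uhrf1 are filled below 0 and Pcna above it. On the right 4 mitotic points are filled below 0 and 4 replication points above it.

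To determine how the deletion affected these genes under stimulation, KO LPS and WT LPS libraries were compared, and fewer genes passed. Of 45 genes, 1 was called lower, where 0.664% of all genes were. Without a fold minimum, 4 mitotic genes were lower, beside 6.54% of all genes, and 4 replication genes were higher, beside 7.78%. The mitotic count was 7 with a minimum mean of 1 CPM and among protein-coding genes only, where Cdk1, Ccnb1 and Cenpa joined. The median log2 fold change was -0.43 for mitotic and 0.11 for replication genes, and -0.01 over all genes. All 24 mitotic genes had a negative value, and 8 of 21 replication genes did, but the genes share libraries and are not independent. Of the 45 genes, 8 changed sign with the small RNA share as a covariate and 6 without KO LPS replicate 1. The called gene was Ccnb2 (ENSMUSG00000032218.6, chromosome 9, 70407692 to 70421547), a mitotic cyclin gene, at 2.57, 3.23 and 3.16 CPM in WT LPS and 1.34, 1.28 and 1.72 in KO LPS libraries (-1.04 on the log2 scale with an SE of 0.216, adjusted p in edgeR 0.00275). It differed by about as much without LPS, at -0.99 (SE 0.171, adjusted p in edgeR 0.000171), where it was called under RLE and upper-quartile scaling and in DESeq2, and its interaction value was -0.05. Its groups did not overlap, but its value was under the fold threshold in fits without WT LPS replicate 2 (-0.97), WT LPS replicate 3 (-0.99), KO LPS replicate 1 (-0.98) or KO LPS replicate 2 (-0.95). With the small RNA share as a covariate Ccnb2 was at -0.99 (adjusted p in edgeR 0.0421), and Cenpf was the 1 gene called lower. Without WT LPS replicate 2 or KO LPS replicate 2 the number called lower was 0, and without KO LPS replicate 3 it was 2.

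The other mitotic genes that passed without a fold minimum were Mki67, Cenpe and Bub1. Mki67 was at 72.6, 69.3 and 64.1 CPM in WT LPS and 48.5, 50.9 and 54.7 in KO LPS libraries (-0.42 on the log2 scale with an SE of 0.0704, adjusted p in edgeR 0.000401). Cenpe was at 7.12, 5.84 and 6.46 CPM in WT LPS and 3.83, 3.94 and 3.73 in KO LPS libraries (-0.76 on the log2 scale with an SE of 0.136, adjusted p in edgeR 0.000718). Bub1, a spindle checkpoint kinase, had a log2 fold change of -0.84 (SE 0.266, adjusted p in edgeR 0.0402) on 0.488 to 1.75 CPM. It did not pass in 8 of the 12 fits that left out 1 library or in the fit of the compared groups only, and it was called without KO LPS replicate 1. KO libraries lay below WT libraries in all of these.

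The 4 replication genes that were higher in KO after LPS were Mcm6, Pcna, Mcm3 and Rrm1. Mcm6 was at 50.1, 43.8 and 40.02 CPM in WT LPS and 54.0, 59.2 and 62.7 in KO LPS libraries (0.39 on the log2 scale with an SE of 0.0760, adjusted p in edgeR 0.00147). Pcna was at 198, 211 and 194 CPM in WT LPS and 236, 254 and 235 in KO LPS libraries (0.27 on the log2 scale with an SE of 0.0552, adjusted p in edgeR 0.00238). Mcm3 (ENSMUSG00000041859.10, chromosome 1, 20802968 to 20820312) was at 5.59, 4.71 and 5.84 CPM in WT LPS and 6.75, 8.56 and 6.70 in KO LPS libraries (0.44 on the log2 scale with an SE of 0.117, adjusted p in edgeR 0.0142). The groups did not overlap in any of the 3. Without WT LPS replicate 2 the number of replication genes higher was 2. Of the other lists, 4 of 77 other mitotic genes were called lower and 10 were lower without a fold minimum (median -0.29), and 2 of 49 other replication genes were lower and 2 higher (median 0.05). Stromal markers moved with this comparison, with a sum over 10 genes of 23.99 to 27.7 CPM in WT LPS and 31.9 to 35.8 in KO LPS libraries, 6 of 8 tested called higher (0.586% of all genes were) and 0 at 0 in both groups. Of the clustered histone genes, 4 of 58 tested were called lower, and 6 of 10 macrophage markers were higher without a fold minimum. The part of these lists in the result was not tested. The share of small structured RNAs was lower in KO LPS libraries, and with it as a covariate 1 replication gene was higher in place of 4, and 4 mitotic genes were lower, with Cenpf among them in place of Bub1. The share lay apart between WT LPS and KO LPS libraries, so the covariate and the genotype cannot be told apart here either.

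Whether the LPS response itself differed between genotypes was tested as an interaction, the response in KO minus that in WT. Of 45 genes, 1 was called higher, where 0.522% of all genes were. Without a fold minimum, 10 were higher, 6 of them replication genes, beside 7.32% of all genes, and 1 was lower, beside 9.50%. The called gene was Rrm2, at 0.857, 0.584 and 0.707 CPM in WT LPS and 0.997, 0.939 and 1.5 in KO LPS libraries. KO against WT was at 0.66 after LPS, which did not pass (adjusted p in edgeR 0.118), and at -0.89 without LPS (interaction log2 value 1.55, SE 0.311, adjusted p in edgeR 0.00139). It rests on 13 to 41 counts per LPS library, and with the small RNA share as a covariate its value was 0.08. The same sign was found in Mki67 (0.54, SE 0.102, adjusted p in edgeR 0.000807), Top2a (0.54, SE 0.141, adjusted p in edgeR 0.0113) and Tpx2 (0.68, SE 0.196, adjusted p in edgeR 0.0198) of the mitotic genes and in Rrm1 (0.52, SE 0.115, adjusted p in edgeR 0.00305) and Mcm6 (0.46, SE 0.104, adjusted p in edgeR 0.00387) of the replication genes. With the small RNA share as a covariate the signs of Mki67 (-0.00299), Tpx2 (-0.563) and Mcm6 (-0.0691) turned, and 0 of the 11 genes passed. The share itself was higher with LPS in WT and lower with LPS in KO, without overlap. The covariate and the interaction thus cannot be told apart. Without the covariate, in Rrm1 and Mcm6 the fall with LPS was smaller in KO, whereas Mki67 and Tpx2 rose more in KO from a lower level without LPS. Without WT LPS replicate 1 the number called higher was 2, the second being Ccne2, and the number of all genes called was 519 in place of 335, while without WT LPS replicate 3 it was 197. Cenpa was the gene with a lower value (-0.65, SE 0.191, adjusted p in edgeR 0.0235), its fall being larger in KO. Of 49 other replication genes, 4 were higher and 1 lower without a fold minimum (median 0.08). Of 77 other mitotic genes, 3 were higher and 2 lower (median 0.16). These are to be read against the 7.32% and 9.50% of all genes above. Other lists moved in this comparison as well, with 3 of 8 tested stromal markers called higher, 3 of 7 tested neutrophil lineage markers called lower (median -1.05) and 28 of 58 tested clustered histone genes called lower, where 1.64% of all genes were called lower. Their part in the result was not tested.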

How the data were processed

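Libraries were made from total RNA with a stranded, globin-depleting kit. Per the labels and the study's methods, the authors used HISAT2 2.1.0 (GRCm38) for paired-end alignment and featureCounts 2.0.0 to obtain the deposited values, which are raw counts. Which annotation release was used, and the strand and multi-mapping settings of the counting, are not given in the sources used here, so reads of genes that overlap may have been split or dropped. Symbols and positions came from GENCODE vM21 (48144 of 48526 identifiers matched).

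Counts were tested with edgeR 4.0.16 (limma 3.58.1, R 4.3.3): filterByExpr by group (minimum count 10), TMM scaling, and 1 quasi-likelihood model of 4 group means over 12 libraries, with a common biological coefficient of variation of 0.0712. The study used DESeq2, run here as an alternative (version 1.42.0). CPM levels for class medians used a prior count of 2. The script was tested on simulated counts. The genes, the classes and the lists were chosen with earlier results of these data known. Genes given in full were those with the highest mean CPM of each of 9 roles (LPS), and those called or with the 3 smallest p-values of a class (genotype and interaction). Mcm2, Tpx2, Tyms, Ccne1 and genes with short values were chosen after their values were seen. Sequences shown were to come from the gene of highest mean CPM per motif and class, but Pcna was passed over because its matches lie inside the GENCODE gene, and Mcm6 took its place. Genes of the other pathway lists were named only if called, of a mean of at least 5 CPM and among the 3 largest changes of their list. Marker genes were named only as the top gene of a sum.

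Replicate numbers equal the batch numbers of the labels, which pairs the libraries by label. Over 18 same-number pairs the deviations from group means correlated at -0.0631 to 0.0373. Replicates differed by more than counting noise (chi-square per degree of freedom 3.81 to 46.3). Alternatives were other scalings, filters, tools, gene sets and windows, a replicate block, a small RNA covariate and leaving out each library. Figures used matplotlib.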

Additional observations from a re-analysis of the deposited data

Results flagged for a closer look

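Of the 45 genes, 11 had an LPS response that differed between genotypes by the interaction test of edgeR at an adjusted p below 0.05. Values are the response in KO minus that in WT on the log2 scale. Among mitotic genes they were 0.54 for Mki67, 0.54 for Top2a, 0.84 for Kif20a, 0.68 for Tpx2 and -0.65 for Cenpa. Among replication genes they were 0.62 for Mcm3, 0.46 for Mcm6, 0.52 for Rrm1, 1.55 for Rrm2, 0.61 for Tk1 and 0.86 for Uhrf1. With the small RNA share as a covariate 0 of the 11 passed, in a fit where that share and the interaction cannot be told apart. Without 1 library in turn, 8 to 10 of them passed, and those that did not in some fit were Tk1, Kif20a, Cenpa and Tpx2. With 3 libraries per group, no single library was tested for standing apart.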

How the results depend on the processing

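Leaving out each library in turn moved 10 summary values and left 338 close to the reported ones, and other alternatives moved 51 and left 290. Without 1 library, the mitotic median of the LPS response in KO ranged from -1.686 to -1.494, the genes called lower in KO UT from 2 to 5 and in KO LPS from 0 to 2, and the replication genes higher in KO LPS from 2 to 4. For the interaction, the genes called ranged from 0 to 1 lower and 1 to 2 higher, and all genes called from 197 to 519. Pcna, whose LPS response in WT did not pass the test, ranged from -0.05348 to 0.007133 without 1 library, and was above 0 at 0.004803 without WT UT replicate 3, at 0.007133 without WT LPS replicate 3 and at 0.0619 among protein-coding genes only, while under upper-quartile scaling it passed as lower, at -0.1978.

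With the replicate block, 35 of 45 genes were called lower in both genotypes with LPS, 2 in KO UT and 1 in KO LPS, and 0 calls among the 45 genes changed.

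With the small RNA share as a covariate, LPS called 2 genes higher in WT and 1 in KO, where medians were -1.461 (replication) and -1.411 (mitotic). In KO UT Hmmr and Cenpf lost their calls, 1 other gene, Bub1b, was called lower, 2 mitotic genes were lower at any fold, 111 of all genes were called, and Cenpf (0.7441) and Rrm2 (0.1328) changed sign. In KO LPS 103 of all genes were called and 1 replication gene was higher at any fold. For the interaction 0 genes were called higher, 42 of all genes were called, 0 replication genes were higher at any fold, medians were 0.07948 (replication) and 0.03848 (mitotic), and Mki67 (-0.00299), Tpx2 (-0.5626) and Mcm6 (-0.06909) changed sign. The share lay apart between the groups of each comparison, so the covariate and the effect tested cannot be told apart in these fits. The cause was not tested.

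RLE scaling and DESeq2 each called 4 genes lower in KO UT, and over all genes they called 134 higher and 168 lower, and 108 and 139, in place of 159 and 124. Upper-quartile scaling gave LPS medians of -1.486 (replication) and -1.973 (mitotic) in WT and -1.309 and -1.809 in KO. Without scaling factors, the class medians per library differed with LPS by -1.979 (replication) and -2.508 (mitotic) in WT and by -1.549 and -1.981 in KO, and the mitotic median by -0.9362 in KO UT. With a mean of at least 1 CPM, all genes called were 160 in KO UT and 117 in KO LPS, and 7 mitotic genes were lower at any fold in KO LPS, as among protein-coding genes only, where the interaction called 186 of all genes. In a fit of the compared groups only, 2 replication genes were higher in KO LPS. Without the fold minimum, LPS called 4 genes higher in WT and 11386 and 11295 of all genes in WT and KO. KO UT then had 21 lower, 1 higher and 3700 of all genes, KO LPS 4, 4 and 2223, and the interaction 1, 10 and 2611.

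In the 250 bases before the start, CHR was in 35.0% of mitotic and 16.0% of all promoters, CCAAT in 33.8% and E2F in 1.86% of all. From 100 before to 50 after it, they were in 8.01%, 23.4% and 1.27% of all promoters, and E2F in 0.0% of mitotic ones. After LPS the lowest count of a member in a library was 3.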
